A study of Glycine max with 4 samples.

Results

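A group of 245 soybean gene models, of 66210 listed in all, was abundant in the cotyledons of seedlings and low in 3 libraries of the seed. Members were chosen by their values: a level of 50 to 2000 scaled CPM in seedling cotyledons, and a level at least 32-fold above that in each of the other libraries. Scaled CPM is the count of mapped reads divided by the library size and multiplied by 1000000, with that size adjusted by TMM (trimmed mean of M-values). Counts under 3 in a seed library were set to 3 before the fold was taken.

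All plants were of the cultivar Williams 82 and were grown in a greenhouse without any treatment named in the labels. The libraries were made from cotyledons of mid-maturation embryos (B1, green, 150 to 250 mg a pair), cotyledons of late-maturation embryos (AA1, yellow, 200 to 350 mg a pair), whole dry seeds (100 to 250 mg) and cotyledons of seedlings 6 days after imbibition. The embryo axis and the seed coat were removed from the B1 and AA1 samples, while the dry seed kept a small contribution of both. Each stage had 1 library, so no difference could be tested across samples. Stage and library preparation cannot be told apart. Totals ranged from 16120894 counts in B1 to 38011608 in AA1, with 21512278 in dry seed and 28190429 in seedling cotyledons. Fewer cells of a type and less RNA per cell cannot be told apart in such bulk samples.

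The soybean cotyledon is a storage organ first. During maturation it fills with protein and oil, then it loses its green colour and dries. After germination it is lifted above the soil, breaks down its reserves and turns green, and it feeds the seedling by photosynthesis before it is shed. Genes for photosynthesis, for the use of stored oil and protein and for the export of sugars and amino acids are known to be active in such cotyledons. Which of these functions the 245 gene models serve is not given by the sources used here. None of the identifiers matched the gene name table at hand (0 of 66210), so members are given by identifier, without product names or sequences, and the photosynthetic or other markers of the tissue were not checked.

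The group was read in the order B1, AA1, dry seed and seedling, and values given for the 4 libraries keep this order throughout. In seedling cotyledons the members ranged from 50.8 to 1870 scaled CPM, with a median of 152 and quartiles of 89.2 and 365. The B1 levels ran from 0 to 29.5 with a median of 0.64. Those of AA1 ran from 0 to 29.0 with a median of 0.35, and those of dry seed from 0 to 29.7 with a median of 0.17. The lowest seedling level of a member was above the highest seed level of any other, so the seedling library did not overlap with the rest. The rule for membership fixes most of this separation. The plot of levels by library shows this gap.

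**Figure D1:**
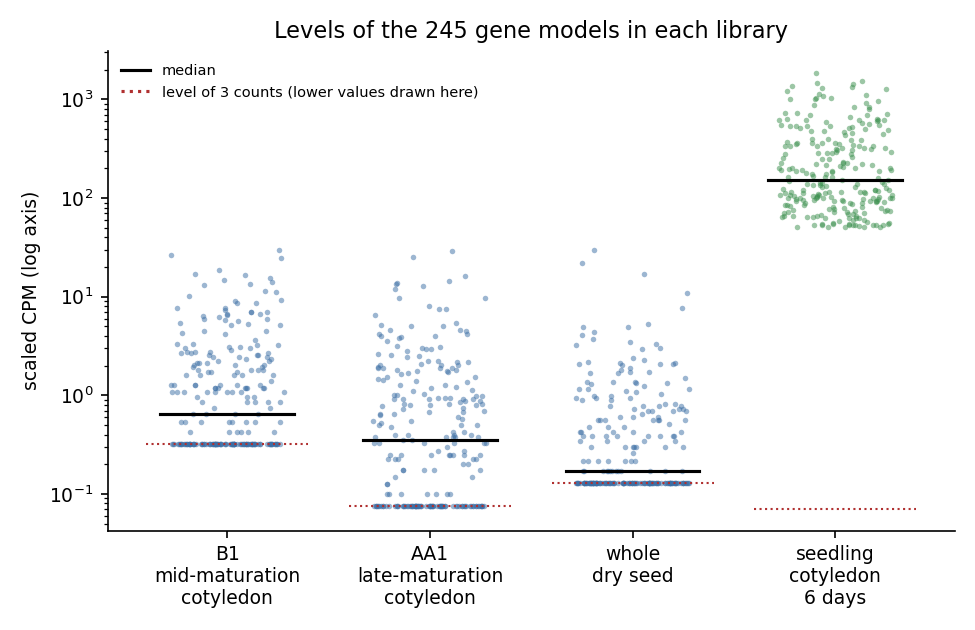
Levels of the 245 gene models in the 4 libraries, in scaled CPM on a log axis. Each point is a gene model, black bars are medians (0.64, 0.35, 0.17 and 152 from left to right), and dotted lines mark the level of 3 counts, at which lower values are drawn.

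In total the members held 3115391 counts of the seedling library, or 11.1% (exact Clopper-Pearson 95% interval 11.04% to 11.06%). Their share of the B1 counts was 0.0334% (0.0325% to 0.0343%). It was 0.0397% of the AA1 counts (0.0390% to 0.0403%) and 0.0237% of the dry-seed counts (0.0231% to 0.0244%). The intervals cover counting error only, and reads copied by PCR are not independent molecules. These shares describe the choice of members and were not tested. Of the 100 most abundant gene models of the seedling library, 41 were members. None of the 10 most abundant was, since all of these lay above the upper bound of the rule, and the most abundant member ranked 14. Among the members 40 gene models were enough for 50 percent of the group's counts, and the first 10 held 19.0%.

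Of the 2064 gene models at 50 to 2000 scaled CPM in seedling cotyledons, 19.1% were at least 32-fold above B1, 22.5% above AA1 and 28.5% above dry seed. The 245 members, which passed all 3 limits, were 11.9% of the 2064. B1 was the library that most often kept a gene model out. Without the limit against B1 the group would have had 442 members, without that against AA1 279, and without that against dry seed 258. Dry seed, the library with coat and axis, thus kept out 13 gene models that passed both other limits, AA1 kept out 34 and B1 197. With total counts in place of TMM the group had 441 members, 239 of them shared with the 245.

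Members were more frequent at higher seedling levels. The seed level that the 32-fold limit allows rises with the seedling level, so the rule by itself favours this rise. The shares are descriptions. They made up 6.28% of the gene models at 50 to 100 scaled CPM, 13.0% at 100 to 200, 26.2% at 200 to 500, 43.75% at 500 to 1000 and 50% of the 28 at 1000 to 2000. The floor of 3 counts was 0.32 scaled CPM for B1, 0.075 for AA1 and 0.13 for dry seed. A gene model at 50 scaled CPM could still reach a fold of 156 over the B1 floor, so the floor did not close the group to low levels. Counts were not divided by transcript length, so a rank in the library is a share of reads and does not rank transcript numbers.

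**Figure D2:**
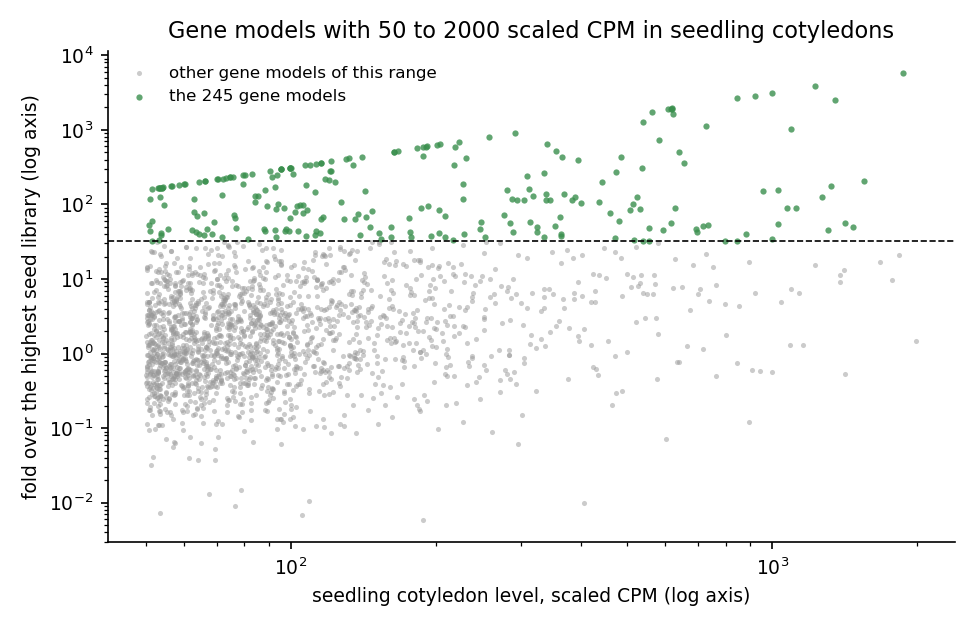
Seedling level in scaled CPM and fold over the highest seed library, both on log axes, for the 2064 gene models at 50 to 2000 scaled CPM. Green points above the dashed line at 32-fold are the 245 gene models, and the straight upper edge on the left is formed by those whose highest seed value is the level of 3 counts in B1.

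The distance to the seed was usually far beyond the threshold. Measured against whichever seed library was highest, the fold had a median of 117 and quartiles of 50.3 and 261. It was at least 64 for 167 members, at least 100 for 133 and at least 1000 for 15. At the threshold the group had no gap. The members just inside stood at 32.1-, 32.1- and 32.5-fold, and the gene models just outside at 31.7-, 31.6- and 31.4-fold. The seedling level of the lowest member was 50.8 scaled CPM, and the nearest gene model below the range with a 32-fold distance had 49.2. Above the range, 8 of 12 gene models with over 2000 scaled CPM also passed the 32-fold limits, and the nearest of them had 2123. Between 20 and 50 scaled CPM, 170 of 4600 did.

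The members with the largest floored folds are described next. Since the floor limits the fold to the seedling level over that of 3 counts, the largest folds can only belong to abundant members, and as picked extremes their values are descriptions. Folds with an interval are ratios of the counts as they stand, without the floor. Glyma11g34230 (chromosome 11) had 3, 13, 4 and 79534 counts, which is 0.32, 0.32, 0.17 and 1870 scaled CPM. It was the most abundant member and was 5837-fold above B1 (exact 95% interval 1997 to 28307), 5765-fold above AA1 (3371 to 10827) and 10894-fold above dry seed (4254 to 39983). All 3 seed levels were low and rested on few counts, so differences among them were not resolved, and the seedling level stood alone.

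Glyma13g42340 (chromosome 13) reached 1225 scaled CPM in seedlings from 2, 1 and 0 counts in the seed libraries. Its fold over B1 was 5733 as the counts stand (1587 to 47344) and 3822 with the 2 counts set to 3. Its fold over dry seed was 9511 with the 0 counts set to 3, and the lower 95% bound from the counts was 7734. Glyma02g18090 (chromosome 2) had 5, 12, 1 and 57515 counts, and its seedling level was 1353 scaled CPM. Both were close to undetected in the seed. Glyma16g27990 (chromosome 16) differed from them in B1. It had 95 counts there (10.1 scaled CPM), 0 in AA1, 11 in dry seed (0.47 scaled CPM) and 53959 in seedlings (1269 scaled CPM). The fold of this gene model was 125 over B1 (102 to 155). Over AA1 it was 16948, again with the 0 counts set to 3, and the lower 95% bound was 13782. Glyma12g10780 (chromosome 12), the second most abundant member by reads, was instead highest in AA1 among the seed libraries, with 2.14, 7.46, 1.37 and 1554 scaled CPM in the 4 libraries.

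Members differed in how much of their transcript was present in the seed. B1 listed 50 of them at 0 counts, AA1 38 and dry seed 71. Of the 1819 other gene models at 50 to 2000 scaled CPM in seedlings, 5, 7 and 21 were at 0 there. The rule caps the seed levels of members, so it favours this difference by itself. In all 3 seed libraries 12 members were at 0. Another 33 had 1 or 2 counts in at least 1 seed library and never 3, so that 45 members stayed under 3 counts throughout. Their seedling levels ran from 51.4 to 1225 scaled CPM, with a median of 95.1. The other 200 members had at least 3 counts in some seed library. Within counting error a count of 0 does not exclude a level near the floor given above (3 counts), so absence from the seed was not shown for any of them.

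The libraries differ in depth, so detection was also compared at 1 common level, that of 3 counts in B1 (0.32 scaled CPM). B1 held 153 members at or above it (62.4%), AA1 129 (52.7%) and dry seed 97 (39.6%). Such shares were not computed for other gene models, so the order is not read as a trait of the members. The largest classes were the 66 members at or above it in all 3 seed libraries, the 57 in none and the 48 in B1 alone. AA1 alone held 10 and dry seed alone 5. B1 with AA1 held 33, AA1 with dry seed 20, and B1 with dry seed 6. The members found in all 3 had a median seedling level of 281 scaled CPM and those found in none 99.7. These classes were cut by the seed level, which also enters the fold, so folds are not compared between them. The 32-fold limit allows higher seed levels only at higher seedling levels. The difference between these medians thus follows in part from the rule, and nothing is read from it.

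**Figure D3:**
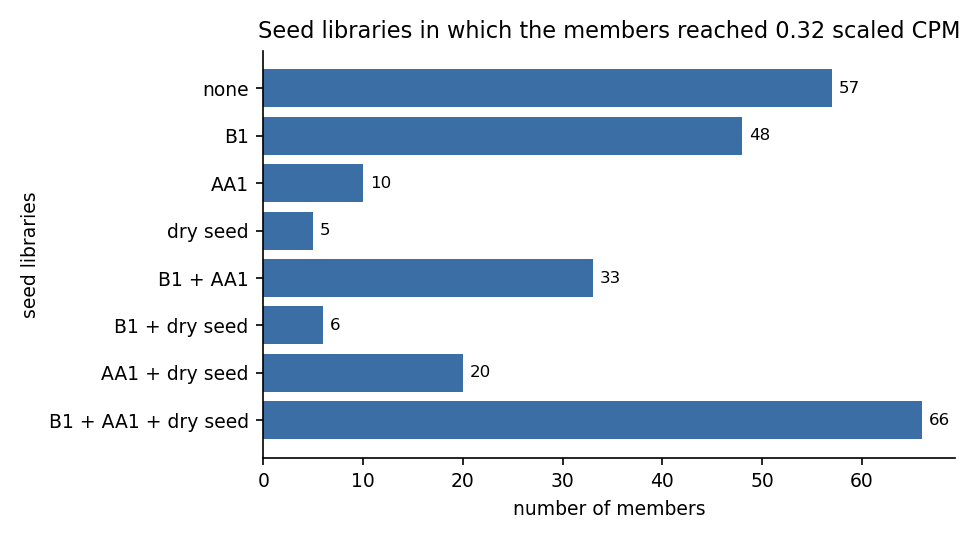
Number of members by the set of seed libraries in which they reached 0.32 scaled CPM, the level of 3 counts in B1. The longest bars are those for all 3 seed libraries (66), none (57) and B1 alone (48).

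Where members reached 1 scaled CPM in the seed, the highest of the seed libraries was most often B1 and seldom the dry seed. The rule caps the level in each seed library and does not set the order of the 3. The filter of 1 scaled CPM uses the same highest level that is then ranked, and the group lies close to it. B1 held 112 members at 1 scaled CPM or more, AA1 71 and dry seed 45. Nothing is therefore read from the difference in shares to the other gene models. Some seed library reached 1 scaled CPM for 137 members, of which 86 (62.8%) were highest in B1, 40 (29.2%) in AA1 and 11 (8.03%) in the dry seed. Of the 1819 other gene models at 50 to 2000 scaled CPM in seedlings, which all reached 1 scaled CPM in some seed library, the shares were 39.6%, 31.5% and 28.9%. The 520 gene models nearest to the group, with folds of 4 to 32, had shares of 53.3%, 33.3% and 13.5%. The order B1, AA1, dry seed for the members held under the 4 other scalings tried, with B1 the highest for 54.5% to 61.9%. Among the 200 members with 3 counts or more in the seed, B1 was highest for 121, AA1 for 59 and dry seed for 20. In 12 of the 121, B1 was first only because its floor is the highest.

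B1 and AA1 were then set against each other. A gene model entered a pair if it had 1 scaled CPM or more in one of its libraries, which took in 134 members here and left out 111. Of the 134, 85 (63.4%) reached that level in 1 library only, 63 of them in B1 and 22 in AA1, against 24.1% of all gene models that entered. The group lies close to the entry level, so the filter by itself takes in members that are far apart, and nothing is read from a share above the background. At least 4-fold higher in B1 were 49 members (36.6%), with a background of 16.6% of all 29154 gene models, 15.9% of the non-members in the seedling range and 28.3% of those with folds of 4 to 32. At least 4-fold lower in B1 were 19 members (14.2%), with 13.2%, 18.2% and 14.4% in the same sets. Of the 49 members with 1 scaled CPM or more in both libraries, 7 (14.3%) were higher and 5 (10.2%) lower in B1. Of all 22135 such gene models 7.30% were higher and 9.58% lower, and of the non-members in the seedling range 11.5% and 16.6%. The median log2 ratio of B1 to AA1 was 0.05 for these members and -0.29 for all such gene models. The larger number higher in B1 thus came mostly from members under 1 scaled CPM in AA1. With members chosen anew, a pseudocount of 1 scaled CPM gave 204, of which 12 were higher and 5 lower. The interval rule, by which the bound nearest to 1 had to pass the limits, gave 205, of which 20 were higher and 8 lower. Shares over all gene models were not computed for the pseudocount and the interval rule in any pair. With 0.32 scaled CPM as the floor in both libraries, 43 of the 134 (32.1%) were higher and 19 (14.2%) lower. The shares of all gene models that entered were 15.7% and 13.2%. With total counts 240 of 441 members entered, of which 82 (34.2%) were higher and 40 (16.7%) lower. The shares of all gene models that entered were then 9.75% and 29.4%. This scaling moved the median of all gene models that entered from -0.19 to -1.15 on the log2 scale.

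The largest differences in this pair lay in opposite directions for different members. Glyma02g07180 (chromosome 2) had 14.0, 0.075, 0.17 and 718 scaled CPM, and its B1 level was 187 times that in AA1 (exact 95% interval 62.6 to 918, from 3 counts in AA1). Glyma06g15540 (chromosome 6) had 17.0, 0.0998, 0 and 556 scaled CPM, a ratio of 170 for B1 over AA1 (65.2 to 632). Both were almost undetected in AA1 and dry seed, with B1 well above them and seedlings far above B1. Glyma18g04080 (chromosome 18) had 0.43, 6.51, 1.80 and 1029 scaled CPM, with AA1 15.2 times as high as B1 (5.88 to 56.4). Glyma08g18750 (chromosome 8) had 0, 3.82, 1.72 and 401 scaled CPM. Its AA1 level was 11.9 times that of B1 with the 0 counts set to 3, and the lower 95% bound from the counts was 9.58.

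In the pair of dry seed and AA1, more members were lower than higher in dry seed. Of 81 members that entered, 46 (56.8%) reached 1 scaled CPM in 1 library only, 36 of them in AA1 and 10 in dry seed, against 17.5% of all gene models that entered. As above, this filter bears on the members more than on the background. A dry-seed level 4-fold or more below AA1 was found for 36 (44.4%), with a background of 9.75% of all 26397 gene models, 12.3% of the non-members in the seedling range and 23.1% of those with folds of 4 to 32. At least 4-fold higher in dry seed were 5 (6.17%), with 5.96%, 2.26% and 2.49% in the same sets. Of the 35 members with 1 scaled CPM or more in both libraries, 8 (22.9%) were lower and 0 higher. Of all 21770 such gene models 3.74% were lower and 3.52% higher, and of the non-members in the seedling range 8.27% and 1.94%. The median log2 ratio of dry seed to AA1 was -0.60 for these members and 0.08 for all such gene models. Of the 204 members chosen with the pseudocount 8 were also lower and 0 higher, and of the 205 under the interval rule 14 and 3. The common floor left 34 and 5. With the common floor the shares were 42.0% and 6.17%, with 8.76% and 5.50% of all gene models that entered. Tissue differs in this pair together with stage, since only the dry seed held coat and axis. No markers of these tissues could be named, so their part in the result was not tested.

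Glyma17g35720 (chromosome 17) had 1.28, 7.49, 0.39 and 1327 scaled CPM, a level in AA1 19.4 times that in dry seed (10.1 to 42.8). Glyma03g28850 (chromosome 3) had 4.27, 5.12, 0.30 and 514, and AA1 was 17.0 times dry seed (8.12 to 42.9). In both the dry-seed level was the lowest of the 4. The opposite direction was seen in Glyma19g34410 (chromosome 19), with 2.46, 0.0499, 2.28 and 288 scaled CPM. Its dry-seed level was 45.6 times that of AA1 as the counts stand (12.0 to 386, from 2 counts in AA1) and 30.4 times with these set to 3. Glyma13g27490 (chromosome 13) had 1.07, 0.12, 2.96 and 339, and dry seed was 23.7 times AA1 (9.69 to 75.4). AA1 was the lowest library for both of them.

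Between dry seed and B1, too, more members were lower than higher in dry seed. Of 125 members that entered, 93 (74.4%) reached 1 scaled CPM in 1 library only, against 29.6% of all gene models that entered. For 80 of the 93 this library was B1. Here too the filter bears on the members more than on the background, and nothing is read from a share above it. At least 4-fold lower in dry seed were 71 (56.8%), with a background of 24.1% of all 29063 gene models, 25.6% of the non-members in the seedling range and 41.1% of those with folds of 4 to 32. At least 4-fold higher were 10 (8%), with 20.1%, 21.4% and 10.7% in the same sets. The 32 members with 1 scaled CPM or more in both libraries held 6 that were lower (18.75%) and 2 that were higher (6.25%). Of all 20447 such gene models 10.1% were lower and 19.4% higher, and of the non-members in the seedling range 17.3% and 21.9%. The median log2 ratio was -0.41 for these members and 0.47 for all such gene models. Of the 204 members chosen with the pseudocount 23 were lower and 3 higher, and of the 205 under the interval rule 31 and 4. The common floor left 62 and 10. With the common floor the shares were 49.6% and 8%, with 22.9% and 20.1% of all gene models that entered. Tissue differs together with stage here as well, since coat and axis were removed from B1 too, and its part was not tested. This pair shares its libraries with the preceding ones and is no separate evidence.

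Glyma06g15540, described above, and Glyma18g44300 (chromosome 18) had the largest ratios of B1 to dry seed. The latter had 13.4, 0.499, 0 and 470 scaled CPM. Its B1 level was 104 times that of dry seed with the floor in place of the 0 counts. The lower bound of the exact interval from the counts was 83.1. The largest ratios of dry seed to B1 were those of Glyma17g18440 (chromosome 17) and Glyma18g06840 (chromosome 18). Glyma17g18440 had 0, 2.52, 5.28 and 362 scaled CPM. Glyma18g06840 had 1.92, 14.4, 29.7 and 1473 scaled CPM in the 4 libraries, and its dry-seed level was 15.5 times that of B1 (9.72 to 26.3). It held the highest dry-seed level of all 245, and each library was above the one before.

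All 245 members carry a chromosome number in their identifier, read from the way soybean gene models are numbered, and they lay on all 20 chromosomes. The number ran from 6 on chromosome 12 to 21 on chromosome 15. As a share of the gene models at 50 to 2000 scaled CPM on the same chromosome, members made up 5.77% on chromosome 12, 18.9% on chromosome 14, 19.3% on chromosome 15 and 24.7% on chromosome 16. The share over the whole genome was 11.9%. These are descriptions of single numbers, and no test of the spread among chromosomes was made.

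**Figure D4:**
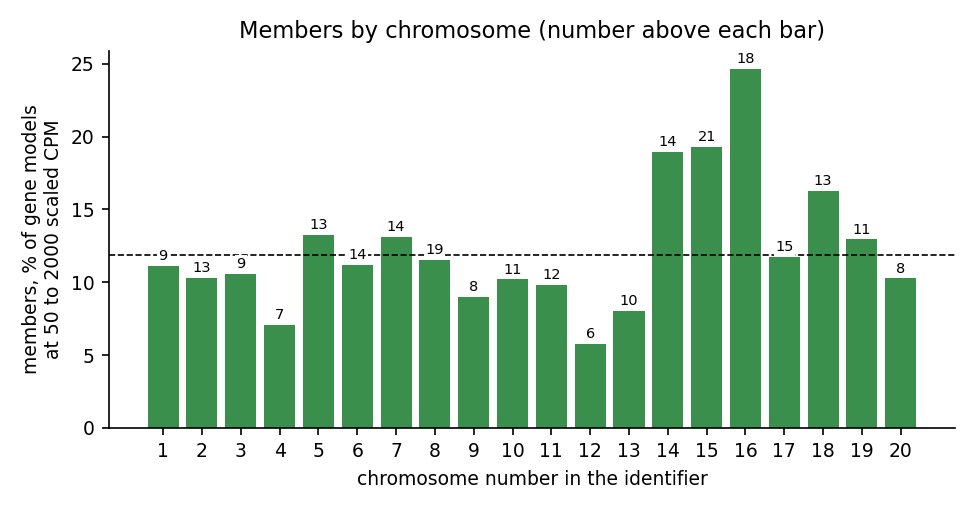
Members as a percentage of the gene models at 50 to 2000 scaled CPM on each chromosome, with the number of members above each bar. The dashed line is the share over all gene models of that range, 11.9%, and chromosome 16 stands highest at 24.7%.

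Along the chromosomes 10 members, in 5 pairs, had another member as the next listed gene model. Of the 488 gene models beside a member 2.05% were themselves members, against 0.37% of all 65781 gene models with a chromosome number. The other 478 were not set apart by abundance: 3.35% of them had 50 to 2000 scaled CPM in seedlings, against 2.77% of all non-members. At least 4-fold above every seed library, with at least 1 scaled CPM in seedlings, were 10.5% of the 478 and 5.98% of all non-members. Neighbours in soybean can be near-identical copies, and the counting of reads that map to several places is not stated in the sources used here. The values of such pairs are uncertain to that extent.

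The 5 pairs are named for their position, after their values were seen. Both members of the pair on chromosome 7 were abundant, Glyma07g00890 with 921 scaled CPM in seedlings and 0.32, 0.075 and 0.043 in B1, AA1 and dry seed, and Glyma07g00900 with 1097 in seedlings and 1.07, 0.025 and 0.30. A pair on chromosome 15 was alike, with 845 scaled CPM in seedlings for Glyma15g03040 and 999 for Glyma15g03050, and at most 4 counts in any seed library. The seedling levels of the neighbours were 1.19 and 1.18 times apart in these pairs.

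The remaining pairs were unequal. On chromosome 16, Glyma16g04760 had 100 scaled CPM in seedlings and 0 counts in all seed libraries, and Glyma16g04770 had 538 scaled CPM in seedlings with 4, 1 and 0 counts in B1, AA1 and dry seed. On chromosome 6, Glyma06g45940 had 103 and Glyma06g45950 had 1122 scaled CPM in seedlings. Their B1 levels were equal at 1.07, while AA1 held 0.25 of the first and 12.7 of the second. On chromosome 15, Glyma15g42970 had 130 scaled CPM in seedlings and at most 2 counts in a seed library, and Glyma15g42980 had 248 in seedlings and 3.31, 4.22 and 3.00 scaled CPM in B1, AA1 and dry seed.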

How the data were processed

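Per the labels' protocols, poly-A RNA was selected in 2 rounds, fragmented, copied with random primers, amplified by PCR (15 cycles) and sequenced as single 76 bp reads. No step marks strand, so reads of antisense genes that overlap a member cannot be told apart from its own. Per the file headers, the deposited values are raw counts of mapped reads per gene model, with no normalization. The submitters' processing notes name Bowtie. Build, annotation release and counting program: not given in the sources used here. Of the rows, 0 lacked an identifier. TMM factors (edgeR 4.0.16, R 4.3.3) over the 4 libraries were 0.581, 1.05, 1.08 and 1.51 in the order B1, AA1, dry seed, seedling. Intervals are exact 95% binomial intervals (scipy 1.17.1) for counting error only. With 1 library per stage the 32-fold and 4-fold limits are rules of size. Gene models were named by rank: the 2 largest floored folds of seedling over each seed library, the 2 largest ratios in each direction of each seed pair, and the 2 highest seedling levels. The members and lists were chosen with earlier results of these data known. Keyword lists of product names could not be applied, since no identifier matched. Alternatives were other scalings (among them DESeq2 1.42.0 size factors), floors, bounds, folds and depths. The procedure was tested on simulated data.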

Additional observations from a re-analysis of the deposited data

How the results depend on the processing

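The order of the seed libraries (more members highest in B1 than in AA1, and fewest in dry seed) and the direction of each seed pair (more members lower than higher in dry seed, more higher than lower in B1 than in AA1) held under all 12 alternatives planned. Members were chosen anew under each of the 12. The sizes moved, and those of the seed pairs depend on the entry filter. All 12 kept the entry by 1 scaled CPM in either library of a pair, so their agreement is no support for the directions of the pairs. With entry in both libraries B1 was higher than AA1 in 7 of 49 members and lower in 5, with a median log2 ratio of 0.05. Total counts gave 441 members with 12.9% of seedling counts. B1 was highest for 207 of these, AA1 for 129 and dry seed for 49. B1 was higher than AA1 in 82 (34.2% of those that entered) and lower in 40 (16.7%), with 9.75% and 29.4% of all gene models. Dry seed was higher than AA1 in 10 (6.02%) and lower in 65 (39.2%), with 6.30% and 9.52% of all. It was higher than B1 in 27 (12.2%) and lower in 117 (52.7%), with 36.0% and 15.8% of all. Of the 441, 20 had a neighbouring member. A seedling level of at least 20 scaled CPM gave 415 members and 11.8% of counts, with B1, AA1 and dry seed highest for 201, 89 and 34, and 21 with a neighbouring member. The share of seedling counts was 10.4% with DESeq2 size factors, 9.93% with the upper quartile, 10.5% with totals without the 100 most abundant gene models, 10.01% with a pseudocount of 1 scaled CPM, 10.2% at 100 scaled CPM or more, 17.4% without the upper bound, 14.1% at 16-fold, 7.33% at 64-fold, 9.74% when the interval bound had to pass the fold, and 10.98% after thinning to 16120894 counts. In the order B1 above AA1, B1 below AA1, dry seed above AA1, dry seed below AA1, dry seed above B1 and dry seed below B1, the members at least 4-fold apart numbered 12, 5, 0, 8, 3 and 23 with the pseudocount, 88, 32, 9, 63, 19 and 130 at 16-fold, 21, 12, 2, 15, 4 and 26 at 64-fold, 20, 8, 3, 14, 4 and 31 under the interval rule, and 7, 5, 0, 8, 2 and 6 with entry by 1 scaled CPM in both libraries, which was chosen after seeing the data. The upper quartile gave 45 for the last of these (48.4%), with 26.3% of all gene models that entered. At 16-fold and 64-fold the shares over all gene models are those given above for each pair, and nothing is read from the counts. At 16-fold 187 members were highest in B1, and at 64-fold 69 were highest in B1 and 12 in dry seed. Dropping the limit against B1, an alternative chosen after seeing the data, gave 442 members. For the bounds and fold limits the shift follows from the rule itself, and for the scalings the cause was not tested. Of the 245 members, 239 remained with total counts, 221 with DESeq2 size factors, 196 with the upper quartile, 234 without the most abundant gene models and 243 after thinning. With the pseudocount 204 remained, and 205 had an interval bound past 32-fold against every seed library. The common floor was also chosen after seeing the data. Low seed levels are least resolved in B1. No paired analysis was possible because each stage had 1 library.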
